A study of Homo sapiens with 30 samples.

Results

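The genes described here are 5 chemokines, CCL1, CCL3, CCL4, CCL22 and CXCL10, and 3 chemokine receptors, CCR7, CXCR4 and CXCR5, in Ramos cells treated with Omomyc. They are 8 of the 57992 genes in the deposited expression table. They were chosen by name with their values in all 10 groups of libraries in view, so their levels and differences are given as a description. They were part of a fit across all genes, whose calls for them are only counted beside the share of all genes called, and nothing is read from those counts. Ramos is a human Burkitt lymphoma line of B cell origin with a MYC translocation, and Omomyc is a miniprotein derived from the dimerization and DNA binding region of MYC. The study treated Ramos cells with 500 nM or 2.5 μM Omomyc for 6 or 24 h or left them untreated. HCT116, a colon carcinoma line in which the labels describe MYC as stabilized, was left untreated or received 2 or 10 μM Omomyc for the same times and serves as the contrast. The labels give 2 μM for the lower HCT116 dose, while the methods name a higher one. The methods describe ProteoJuice, a reagent that carries protein into cells, for the HCT116 libraries, and the sources used here describe no reagent for the Ramos libraries. Each of the 10 groups had 3 replicate libraries of rRNA-depleted total RNA. Both lines are single established lines, and the untreated groups carry no time point, so 1 untreated group per line was the control at both times. A difference between a treated group and untreated cells therefore cannot be told apart from a difference in time. Words such as rose, fell, higher and lower state only how a group stood against that untreated group. The labels do not say whether replicates were separate cultures, so a p-value measures only the spread between these libraries, which may be technical.

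Chemokines are small secreted proteins that bind receptors coupled to heterotrimeric G proteins and guide the movement of leukocytes. In B cells, CXCR4 responds to CXCL12 and places cells in the bone marrow and the dark zone of germinal centers, CXCR5 responds to CXCL13 and draws cells into follicles, and CCR7 responds to CCL19 and CCL21 and draws cells toward T cell zones. CCL3 and CCL4 are inflammatory chemokines that activated B cells secrete, CCL22 is a ligand of CCR4, CCL1 is a ligand of CCR8, and CXCL10 is an interferon-induced ligand of CXCR3. Many chemokine genes are targets of NF-kB, and MYC and Omomyc both bind E box sequences in DNA.

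The 250 bases before the RefSeq transcription start of 4 members are shown because the levels of CCL1, CCL3 and CCL22 moved together in Ramos cells while that of CXCR4 did not follow them. The sequences are from GRCh38.p14 and are written 5′ to 3′ on the strand of the gene. The set of promoters used held a sequence for 6 of the 8 members and lacked CCL4 and CCR7. Each was searched on both strands for the E box CACGTG, the kB motif GGGNNNNNCC and the interferon response element GAAANNGAAA, and capitals mark the letters that matched. Overlapping matches share 1 stretch of capitals. The RefSeq and GENCODE starts differ, so that 26 bases of the CCL3 window, 11 of the CCL22 window and 16 of the CXCR4 window lie inside the GENCODE gene.
CCL1, chr17:34363234-34363483, minus strand: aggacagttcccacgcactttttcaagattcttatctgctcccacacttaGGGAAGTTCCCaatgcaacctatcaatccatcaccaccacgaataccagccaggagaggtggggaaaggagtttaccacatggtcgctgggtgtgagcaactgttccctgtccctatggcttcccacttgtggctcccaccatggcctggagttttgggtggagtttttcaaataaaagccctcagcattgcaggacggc
CCL3, chr17:36090144-36090393, minus strand: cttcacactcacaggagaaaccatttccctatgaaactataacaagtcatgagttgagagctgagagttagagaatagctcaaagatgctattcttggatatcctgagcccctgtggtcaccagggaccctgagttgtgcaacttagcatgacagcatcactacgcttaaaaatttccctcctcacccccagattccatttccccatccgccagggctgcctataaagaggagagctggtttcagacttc
CCL22, chr16:57358533-57358782, plus strand: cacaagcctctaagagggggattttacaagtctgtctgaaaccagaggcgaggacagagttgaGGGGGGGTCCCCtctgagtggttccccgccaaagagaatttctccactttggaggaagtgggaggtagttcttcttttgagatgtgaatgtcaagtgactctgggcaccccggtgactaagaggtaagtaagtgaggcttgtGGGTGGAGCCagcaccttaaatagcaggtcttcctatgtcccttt
CXCR4, chr2:136118150-136118399, minus strand: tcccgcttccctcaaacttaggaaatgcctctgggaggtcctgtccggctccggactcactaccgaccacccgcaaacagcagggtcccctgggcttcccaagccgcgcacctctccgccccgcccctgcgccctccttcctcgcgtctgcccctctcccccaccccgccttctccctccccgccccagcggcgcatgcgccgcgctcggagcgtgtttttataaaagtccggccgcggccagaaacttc
All the capitals in these 4 sequences are matches to the kB motif, with 1 stretch in CCL1, 2 in CCL22 and 0 in CCL3 and CXCR4. The motif was also found in CXCL10 and CXCR5, and so in 4 of the 6 promoters of members. All 250 bases of the CXCR5 window lie inside the GENCODE gene. The kB motif is a loose one and stood in 14671 of 27305 promoters of the same length (53.7%). The E box was found in 0 of the 6 promoters of members and in 1772 of the 27305 (6.49%). The interferon response element was found once, in CXCL10, and in 839 of the 27305 (3.07%). The windows differ in composition, with 51.6% G and C in CCL1, 47.2% in CCL3, 51.2% in CCL22 and 68% in CXCR4. A match is a stretch of letters and not a site of binding.

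Levels are in RPKM, which divides the reads of a gene by its length and by the reads of its library, so levels are per length and can be set beside each other between genes. The files hold no read counts, which leaves the depth unknown, and the precision rests on the replicates. The sum of RPKM ranged from 783788 to 973736 over the 15 Ramos libraries and was lowest, 783788 to 828045, after 24 h at 2.5 μM. All 10 B cell markers examined had a mean of at least 0.5 RPKM in every Ramos group, and their sum was 1728 to 1957 RPKM, against 2.39 to 6.29 RPKM in HCT116 cells. Markers of colon epithelium summed to at most 1.24 RPKM in Ramos cells and those of myeloid cells to at most 0.363 RPKM. The summed levels of 2 other marker lists were ordered by group much as the chemokines were. The sum of 8 T and NK cell markers was 7.62 to 7.66 RPKM in untreated cells, 4.28 to 4.53 and 3.74 to 4.56 RPKM after 6 h at 500 nM and 2.5 μM, 6.58 to 8.61 RPKM after 24 h at 500 nM, and 4.44 to 4.98 RPKM after 24 h at 2.5 μM. Most of that sum was CD28, a costimulatory receptor (6.43 RPKM in untreated cells), while CD2 and CD8A were at 0 in all 15 Ramos libraries and CD3D in 14. The sum of 6 stromal markers was 0.147 to 0.278 RPKM in untreated cells, 0 to 0.0284 and 0 to 0.0286 RPKM after 6 h at 500 nM and 2.5 μM, 0.13 to 0.234 RPKM after 24 h at 500 nM, and 0.0276 to 0.0702 RPKM after 24 h at 2.5 μM. Most of that sum in untreated cells was PDGFRB, a growth factor receptor of mesenchymal cells (0.191 RPKM), and COL1A2 and LUM were at 0 in all 15 libraries. The part of these markers in the results was not tested. In bulk RNA, fewer cells of a type and less RNA per cell cannot be told apart.

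CCL1, CCL3, CCL4, CCL22 and CCR7 were lower than in the untreated group after 6 h of Omomyc at both doses and after 24 h at 2.5 μM. After 24 h at 500 nM, CCR7 lay above the untreated libraries, and CCL1, CCL3, CCL4 and CCL22 overlapped them. In that group replicate 1 was the highest library for each of these genes. CCL3 was 29.7 RPKM there against 18.3 and 19.1, and CCL4 was 15.6 against 8.66 and 10.4. CXCR4 was higher at 6 h, CXCR5 differed by less than 0.5 on the log2 scale in each comparison with untreated cells, and CXCL10 was close to 0 throughout. CXCR4 had the highest level of the 8 in each of the 15 Ramos libraries.

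**Figure D1:**
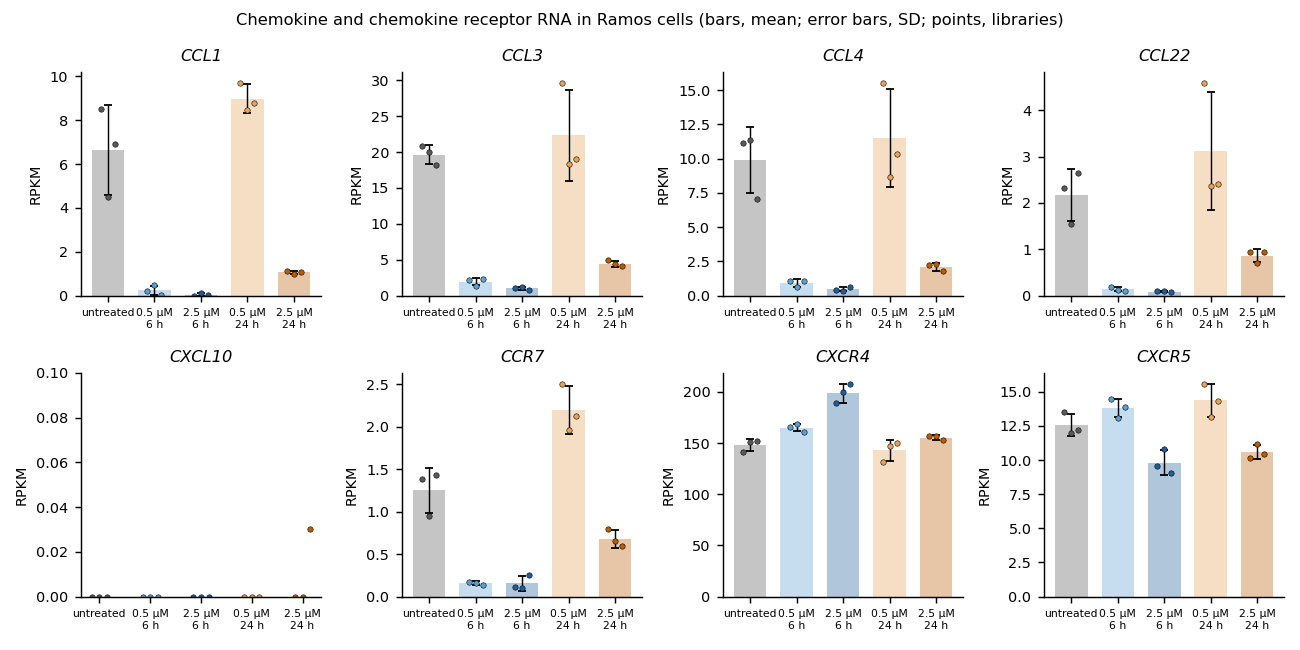
RPKM of the 8 genes in the 5 groups of Ramos libraries, with 1 panel per gene. Points are the 3 libraries of a group, bars their mean and error bars the SD, except for CXCL10, which is shown as points only. The panels of CCL1, CCL3, CCL4, CCL22 and CCR7 share a low at 6 h with both doses and a level at 24 h that is lower with 2.5 μM than with 500 nM, and CXCR4 peaks after 6 h at 2.5 μM with 189.1 to 207.7 RPKM.

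CCL3 (ENSG00000277632, 17:36088256-36090169 in GENCODE 29 on GRCh38, minus strand), an inflammatory chemokine also known as MIP-1α, was the most abundant of the 5 chemokines. Its RPKM was 20.9, 20.0 and 18.1 in the untreated libraries, 2.21, 1.35 and 2.33 after 6 h at 500 nM, and 1.11, 1.13 and 0.790 after 6 h at 2.5 μM. All 6 libraries of the 6 h groups were below the untreated ones, and those at 2.5 μM were below those at 500 nM. After 24 h it was 29.7, 18.3 and 19.1 at 500 nM and 4.91, 4.34 and 4.12 at 2.5 μM. The 500 nM libraries overlapped the untreated ones, and the 2.5 μM libraries lay between the 6 h groups and untreated cells. The means were 19.7 ± 1.38 RPKM (SD, n = 3) in untreated cells, 9.98% of that after 6 h at 500 nM, 5.13% after 6 h at 2.5 μM, 113.7% after 24 h at 500 nM and 22.7% after 24 h at 2.5 μM. On the log2(RPKM + 0.5) scale, on which all fold changes are given here, the differences from untreated cells were −3.06 (SE 0.156) and −3.75 (SE 0.116) at 6 h, and 0.15 (SE 0.160) and −2.02 (SE 0.0870) at 24 h. This scale understates the change of genes with low RPKM.

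CCL4 (ENSG00000275302, 17:36103590-36105621, plus strand), also known as MIP-1β, lies next to CCL3 and had about the same pattern at a lower level. Its RPKM was 11.2, 11.4 and 7.08 in untreated cells, 1.10, 0.616 and 1.08 after 6 h at 500 nM, and 0.413, 0.369 and 0.660 after 6 h at 2.5 μM. At 24 h it was 15.6, 8.66 and 10.4 at 500 nM and 2.25, 2.28 and 1.79 at 2.5 μM. The 6 h groups overlapped each other, the 500 nM group at 24 h overlapped untreated cells, and the 2.5 μM group at 24 h stood apart from all the others. The mean of 9.87 ± 2.41 RPKM (SD, n = 3) in untreated cells compared with 0.932 ± 0.273 and 0.481 ± 0.157 RPKM at 6 h and with 11.5 ± 3.59 and 2.11 ± 0.274 RPKM at 24 h. Its log2 fold changes were −2.85 (SE 0.206) and −3.38 (SE 0.197) at 6 h, and 0.20 (SE 0.224) and −1.97 (SE 0.176) at 24 h.

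CCL3 and CCL4 have near-identical copies in the same cluster of chromosome 17, and how reads were split between a gene and its copy is not known. The copy CCL3L1 (17:36194869-36196758, minus strand) had a mean of 3.01 RPKM in untreated cells, 0.430 and 0.323 RPKM at 6 h, and 3.65 and 0.721 RPKM at 24 h, at 500 nM and 2.5 μM in that order. CCL4L2 (17:36210924-36212878, plus strand) had 8.11 RPKM in untreated cells, 2.63 and 1.55 RPKM at 6 h, and 9.59 and 3.30 RPKM at 24 h. Both copies were ordered by group as their partner genes were, and in the 3 groups where CCL4 was low CCL4L2 retained a larger percentage of its untreated level, 32.4%, 19.1% and 40.7% against 9.44%, 4.87% and 21.3%. CCL3 and CCL3L1 also overlap antisense genes, and whether the counting used strand is not given in the sources used here.

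CCL1 (ENSG00000108702, 17:34360328-34363231, minus strand), the CCR8 ligand, had the lowest percentage of its untreated level of the 5 genes that were low at 6 h. Its RPKM was 8.53, 4.48 and 6.92 in untreated cells, 0.207, 0.468 and 0.0439 after 6 h at 500 nM, and 0, 0.105 and 0.0413 after 6 h at 2.5 μM. These 6 h means were 3.60% and 0.732% of the untreated mean of 6.65 ± 2.04 RPKM (SD, n = 3), and the 6 h groups overlapped each other. At 24 h CCL1 was 9.72, 8.46 and 8.79 RPKM at 500 nM, which overlapped untreated cells at 135.3% of their mean, and 1.11, 0.993 and 1.08 RPKM at 2.5 μM, or 16.0%. In log2 fold changes, these differences were −3.27 (SE 0.264) and −3.66 (SE 0.222) at 6 h, and 0.45 (SE 0.189) and −2.15 (SE 0.201) at 24 h.

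CCL22 (ENSG00000102962, 16:57358772-57366190, plus strand), a ligand of CCR4 that attracts T helper and regulatory T cells, was a low-level gene with the same order of groups. Its RPKM was 2.33, 1.55 and 2.64 in untreated cells, 0.181, 0.129 and 0.0976 after 6 h at 500 nM, and 0.0936, 0.0952 and 0.0752 after 6 h at 2.5 μM. At 24 h it was 4.60, 2.36 and 2.42 at 500 nM, overlapping untreated cells, and 0.941, 0.697 and 0.946 at 2.5 μM, below them. The 6 h means were 6.26% and 4.05% of the untreated mean of 2.17 ± 0.560 RPKM (SD, n = 3), and the 24 h means were 143.8% and 39.6%. On the log2 scale, CCL22 differed from untreated cells by −2.05 (SE 0.209) and −2.16 (SE 0.206) at 6 h, and 0.41 (SE 0.249) and −0.96 (SE 0.194) at 24 h.

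CXCL10 (4:76021117-76023497, minus strand), the interferon-induced CXCR3 ligand, was listed at 0 in 14 of the 15 Ramos libraries and at 0.0302 RPKM in the remaining one, a library of 24 h at 2.5 μM. It was not tested in any comparison. It overlaps ART3 on the other strand.

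CCR7 (17:40553769-40565472, minus strand), the receptor for CCL19 and CCL21, was the receptor whose levels followed those of the 4 chemokines. Its RPKM was 1.38, 0.945 and 1.43 in untreated cells, 0.174, 0.162 and 0.132 after 6 h at 500 nM, and 0.112, 0.0998 and 0.253 after 6 h at 2.5 μM. The 6 h groups were 12.5% and 12.4% of the untreated mean of 1.25 ± 0.267 RPKM (SD, n = 3) and overlapped each other. At 24 h CCR7 was 2.51, 1.96 and 2.12 RPKM at 500 nM, above all untreated libraries, and 0.799, 0.655 and 0.590 RPKM at 2.5 μM, below all of them. The log2 fold changes were −1.41 (SE 0.203) and −1.42 (SE 0.210) at 6 h, and 0.63 (SE 0.172) and −0.56 (SE 0.188) at 24 h. CCR7 is the only member whose 24 h libraries stood on opposite sides of the untreated ones at the lower and the higher dose without overlap, and it is a gene near the lower limit of what was tested.

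CXCR4 (2:136114349-136118165, minus strand), the CXCL12 receptor, was expressed at a level far above the other members. Its RPKM was 141.6, 151.5 and 152.0 in untreated cells, 165.2, 168.4 and 161.1 after 6 h at 500 nM, and 189.1, 199.6 and 207.7 after 6 h at 2.5 μM. Both 6 h groups were above untreated cells and apart from each other, with 2.5 μM the higher. At 24 h CXCR4 was 131.3, 146.9 and 150.4 RPKM at 500 nM, overlapping untreated cells, and 156.6, 156.6 and 152.8 RPKM at 2.5 μM, just above the highest untreated library. The means were 148.4 ± 5.83 RPKM (SD, n = 3) in untreated cells and 111.2%, 134.0%, 96.3% and 104.7% of that in these 4 groups. On the log2 scale, CXCR4 differed from untreated cells by 0.15 (SE 0.0459) and 0.42 (SE 0.0484) at 6 h, and −0.06 (SE 0.0597) and 0.07 (SE 0.0408) at 24 h. With each library rescaled to the same sum of RPKM, they were 0.25, 0.56, 0.01 and 0.27, so the difference at 24 h and 500 nM turned from lower to higher.

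CXCR5 (11:118883766-118897799, plus strand), the CXCL13 receptor, differed with dose more than with time. Its RPKM was 13.5, 12.0 and 12.2 in untreated cells, 14.4, 13.1 and 13.9 after 6 h at 500 nM, and 9.59, 10.8 and 9.02 after 6 h at 2.5 μM. At 24 h it was 15.6, 13.2 and 14.3 at 500 nM and 10.1, 11.1 and 10.4 at 2.5 μM. Both 500 nM groups overlapped untreated cells, both 2.5 μM groups lay below them, and the 2.5 μM groups overlapped each other. The log2 fold changes were 0.13 (SE 0.0731) and −0.34 (SE 0.0840) at 6 h, and 0.18 (SE 0.0830) and −0.24 (SE 0.0725) at 24 h. With each library rescaled to the same sum of RPKM, the differences at 2.5 μM were −0.21 at 6 h and −0.04 at 24 h. CXCR5 overlaps BCL9L and an antisense gene on the other strand.

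**Figure D2:**
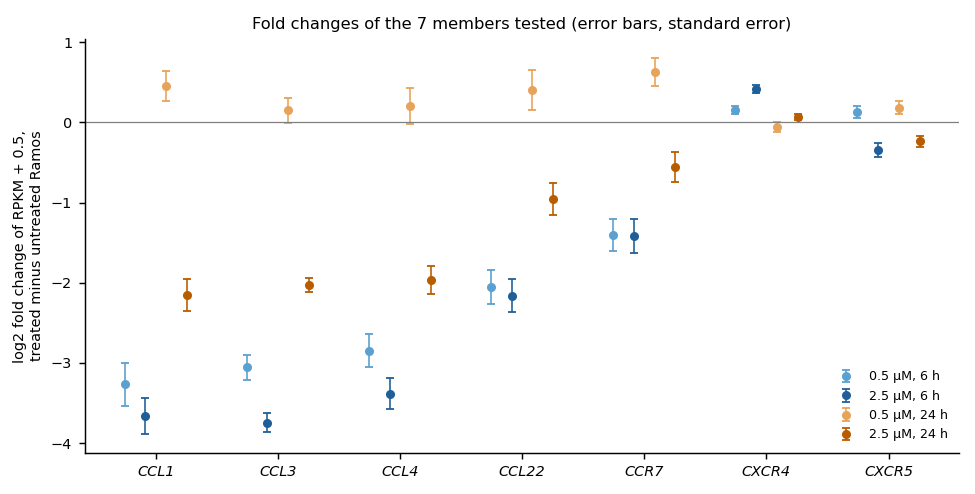
Log2 fold change of log2(RPKM + 0.5) from untreated Ramos cells for the 7 members that were tested, with error bars of 1 SE, in the 4 Omomyc groups. CCL1, CCL3 and CCL4 lie between −2.85 and −3.75 at 6 h and between −1.97 and −2.15 after 24 h at 2.5 μM, while CXCR4 and CXCR5 stay within 0.5 of 0.

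Across all genes, limma was fitted to log2(RPKM + 0.5) of the 3 libraries of each group for genes with a mean of at least 0.5 RPKM, and a gene was counted as changed at a Benjamini-Hochberg adjusted p under 0.05. After 6 h at 500 nM, 1 member was past this threshold as higher and 5 as lower of 7 tested, where 13.8% of all 13614 genes were higher and 9.73% lower. After 6 h at 2.5 μM, 1 was higher and 6 lower of 7, where 17.3% of 13595 genes were higher and 10.7% lower. At the later time and 500 nM, 0 of 7 members were past the threshold by limma, and 2 had an unadjusted p under 0.05, where 0.0146% of 13674 genes were higher and 0% lower. In that comparison 763 of all genes had an unadjusted p under 0.05. With 2.5 μM at 24 h, 0 members were higher and 4 lower of 7, where 3.30% of 13607 genes were higher and 1.31% lower, and CCR7, CXCR4 and CXCR5 were not past the threshold. These contrasts, and those between times and between doses, were in view when the members were chosen, so nothing is read from the counts. Over the alternative fits, CXCR4 was past the threshold in 6 of 16 after 6 h at 500 nM, and CCL22 in 7 of 15 after 24 h at 2.5 μM. At 6 h, 3 members at 500 nM and 4 at 2.5 μM were tested although their mean in 1 of the groups was under 0.5 RPKM. The median log2 fold change of the tested members was −2.05, −2.16, 0.20 and −0.96 in these 4 comparisons, in the order given, against 0.02, 0.03, 0.02 and 0.05 over all genes tested.

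In the order of all genes tested from the lowest log2 fold change, CCL1, CCL3 and CCL4 stood at places 3, 4 and 5 after 6 h at 500 nM, with CCL22 at 9 and CCR7 at 43. After 6 h at 2.5 μM, CCL3 was at place 1, CCL1 at 2, CCL4 at 4, CCL22 at 12 and CCR7 at 45. At 24 h and 2.5 μM, CCL1, CCL3 and CCL4 were at places 4, 5 and 6 and CCL22 at 37. These places are a description of the values for which the genes were chosen.

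The levels at 24 h were also set against those at 6 h of the same dose. At 500 nM, the log2 difference (24 h minus 6 h) was 3.72 for CCL1, 3.21 for CCL3, 3.05 for CCL4, 2.46 for CCL22 and 2.03 for CCR7, and it was −0.21 for CXCR4 and 0.05 for CXCR5. CCL1 had the highest difference of all 13611 genes tested, and CCL3, CCL4, CCL22 and CCR7 were at places 3, 4, 7 and 11. Of the 7 members, 5 were past the threshold as higher and 1 as lower, where 11.9% of all genes were higher and 13.5% lower. At 2.5 μM the difference was smaller, 1.51 for CCL1, 1.72 for CCL3 and 1.42 for CCL4, with −0.35 for CXCR4 and 0.11 for CXCR5. There, 3 members were higher and 1 lower of 5 tested, where 12.7% of all genes were higher and 10.4% lower. The values of both times were in view when the members were chosen, so these counts too are a description. The 6 h and 24 h groups were compared without untreated libraries of their own time.

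The doses were also set against each other at each time, and CCL3 and CCL4 differed more between them at 24 h than at 6 h. At 6 h, the log2 difference of 2.5 μM minus 500 nM was −0.69 for CCL3, −0.54 for CCL4, 0.27 for CXCR4 and −0.48 for CXCR5. Of these 4 members tested, 1 was past the threshold as higher (CXCR4) and 1 as lower (CXCR5), where 0.185% of all genes were higher and 0.244% lower. At 24 h, it was −2.60 for CCL1, −2.17 for CCL3, −2.17 for CCL4, −1.36 for CCL22, −1.19 for CCR7 and −0.42 for CXCR5, and these 6 were past the threshold, where 2.39% of all genes were higher and 1.86% lower. CXCR4 differed by 0.12 at 24 h, with the 2.5 μM libraries above the 500 nM libraries, and was not past the threshold. The choice of members was made with both doses in view, and nothing is read from these counts.

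In HCT116 cells, 7 of the 8 members were at or below 0.161 RPKM in every library. CCL1 was at 0 in all 15 HCT116 libraries, and the highest level in any of them was 0.109 RPKM for CCL3, 0.0467 for CCL4, 0.0502 for CCL22, 0.0491 for CXCL10, 0.161 for CCR7 and 0.0242 for CXCR5. CXCR4 was the only member tested in this line, with 0.685, 0.714 and 0.568 RPKM in untreated cells. It was 0.427, 0.402 and 0.422 RPKM after 6 h at 2 μM and 0.503, 0.463 and 0.287 RPKM after 6 h at 10 μM, both below the untreated libraries without overlap. At 24 h it was 1.03, 0.699 and 0.895 RPKM at 2 μM and 0.675, 0.863 and 0.511 RPKM at 10 μM, and both overlapped untreated cells. The log2 fold changes of CXCR4 were −0.33 (SE 0.164) and −0.34 at 6 h and 0.25 and 0.03 at 24 h, at 2 and 10 μM in that order. It was not past the threshold in any of the 4 comparisons, in which 47.3%, 30%, 27.3% and 35.2% of all genes were past it in either direction (2 and 10 μM at 6 h, then 2 and 10 μM at 24 h).

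Other genes of the same families and pathways were tested with the whole table. They were taken from lists of names, and these lists were also written with earlier results of these data known. Of 39 other chemokine ligands, 1 was expressed highly enough to be tested in Ramos cells, CCL5, also known as RANTES. CCL5 had a mean of 1.03 RPKM in untreated cells and 0.311 RPKM after 6 h at 2.5 μM (log2 fold change −0.90, SE 0.223). The treated mean was under 0.5 RPKM, so CCL5 was tested there only through its untreated level. Its call as lower in that comparison is therefore only a description. CCL5 was not past the threshold in the other 3 comparisons. Of 20 other receptors, 4 were tested, CCR6, CCR10, ACKR4 and CCRL2. CCL5 and CCRL2 are named after their values were seen.

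After 24 h at 2.5 μM, 1 of these 4 receptors rose and 0 fell, where 3.30% of all genes tested rose and 1.31% fell. At 6 h, 1 rose and 3 fell at each dose. Of all genes tested, 13.8% rose and 9.73% fell at 500 nM at 6 h, and 17.3% rose and 10.7% fell at 2.5 μM. CCR6, the CCL20 receptor, fell from 11.6, 11.6 and 10.9 RPKM to 7.72, 6.37 and 5.82 at 500 nM and to 6.88, 5.96 and 5.47 at 2.5 μM (log2 fold change −0.74 and −0.85, adjusted p = 0.00135 and 0.000333, limma). At 24 h its log2 fold change was −0.06 and −0.02. CCR10, a receptor for CCL27 and CCL28, rose by 0.64 (SE 0.117, adjusted p = 0.00512, limma) and 0.50 (adjusted p = 0.0162) at 6 h and by 0.57 (adjusted p = 0.0282) after 24 h at 2.5 μM. ACKR4, a decoy receptor that takes up CCL19 and CCL21, had log2 fold changes of −0.24 (adjusted p = 0.0388) and −0.31 (adjusted p = 0.00524) at 6 h. CCRL2, a receptor-like protein that binds chemerin, had log2 fold changes of −0.56 (adjusted p = 0.0375) and −0.49 (adjusted p = 0.0435) at 6 h, from 1.45, 1.55 and 1.72 RPKM in untreated cells. With each library rescaled to the same sum of RPKM, 1 of the 4 receptors, rather than 3, fell at each dose at 6 h. Under that scaling 2834 of 13615 genes tested were past the threshold at 500 nM and 4675 of 13607 at 2.5 μM. Of those, 79.8% and 85.2% were higher.

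Of 22 genes listed as carrying or ending the chemokine receptor signal, 19 were tested. After 6 h at 500 nM, 2 rose and 2 fell, where 13.8% of all genes tested rose and 9.73% fell. At 2.5 μM, 3 rose and 4 fell at 6 h, where 17.3% of all genes rose and 10.7% fell, and 0 rose and 4 fell at 24 h, where 3.30% rose and 1.31% fell. RAC2, a small GTPase of leukocyte migration, fell, with log2 fold changes of −0.60 (adjusted p = 0.000151, limma) and −0.85 (SE 0.0484, adjusted p = 2.58e-05) at 6 h and −0.28 (adjusted p = 0.0164) after 24 h at 2.5 μM. RGS16, which speeds the shutdown of G proteins, was at −0.28, −0.48 and −0.58 in these comparisons (adjusted p = 0.00355, 0.000228 and 0.00186). RGS1, a regulator of the same kind, was at −0.51 (adjusted p = 0.00476) after 6 h and at −0.75 (adjusted p = 0.0114) after 24 h at 2.5 μM. RGS19, another such regulator, rose by 0.47 (adjusted p = 0.00147) and 0.36 (adjusted p = 0.00744) at 6 h. With each library rescaled to the same sum of RPKM, 6 genes of this list rose and 2 fell after 24 h at 2.5 μM. Under that scaling 5362 of all 13619 genes tested were past the threshold there, 97.4% of them higher, so nothing is read from these counts.

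All 12 tested genes of the 16 listed for B cell positioning and adhesion changed at 6 h, 6 up and 6 down at both doses, where 13.8% of all genes tested rose and 9.73% fell at 500 nM and 17.3% rose and 10.7% fell at 2.5 μM. ITGB2, the β2 integrin subunit that pairs with ITGAL to form LFA-1, followed the chemokines, with 6.37, 4.01 and 3.59 RPKM in untreated cells, 0.499, 0.365 and 0.762 after 6 h at 500 nM, 0.410, 0.626 and 0.200 after 6 h at 2.5 μM, 6.76, 4.25 and 4.94 after 24 h at 500 nM, and 1.54, 1.56 and 1.21 after 24 h at 2.5 μM. Its log2 fold change was −2.29 (SE 0.225, adjusted p = 0.00028, limma) after 6 h at 500 nM and −1.38 (SE 0.197, adjusted p = 0.0114) after 24 h at 2.5 μM. After 6 h at 2.5 μM it was −2.49 (SE 0.241). The mean of ITGB2 there, 0.412 RPKM, was under 0.5 RPKM. It was tested in that comparison only through its untreated level, so its call there is only a description. The 500 nM libraries at 24 h overlapped the untreated ones. GPR18, a receptor of B and T lymphocytes, was at 23.8, 21.2 and 19.8 RPKM in untreated cells and fell to 9.35, 8.98 and 9.37 RPKM after 6 h at 2.5 μM (log2 fold change −1.18, SE 0.0751, adjusted p = 3.66e-05). CD69, an early activation antigen that holds lymphocytes in tissue by removing S1PR1, fell, with log2 fold changes of −0.69 (adjusted p = 0.01) and −0.97 (adjusted p = 0.00175) at 6 h and −0.62 (adjusted p = 0.0432) after 24 h at 2.5 μM. S1PR2, the receptor that confines germinal center B cells, rose from 20.6, 22.9 and 23.0 RPKM to 38.2, 34.5 and 37.0 at 500 nM and to 41.6, 43.0 and 44.1 at 2.5 μM at 6 h (log2 fold change 0.71 and 0.94, adjusted p = 0.000202 and 3.09e-05). S1PR2 was 0.03 and 0.12 above untreated cells at 24 h, and neither value was past the threshold. At 24 h and 2.5 μM, 2 genes of this list rose and 4 fell, where 3.30% of all genes tested rose and 1.31% fell. With each library rescaled to the same sum, 5 of the list rose and 2 fell there, where 5362 of all 13619 genes tested were past the threshold, 97.4% of them higher.

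Among targets and feedback genes of NF-kB, more fell than rose at 6 h. All 18 listed were tested, and 2 rose and 9 fell at 500 nM, 3 rose and 11 fell at 2.5 μM, and 0 rose and 10 fell after 24 h at 2.5 μM. The median log2 fold change of the list was −0.22, −0.34 and −0.27, against 0.02, 0.03 and 0.05 over all genes tested. Of all genes tested, 13.8%, 17.3% and 3.30% rose and 9.73%, 10.7% and 1.31% fell in these comparisons. EBI3, a cytokine subunit of IL-27 and IL-35, was at 6.65, 5.82 and 5.77 RPKM in untreated cells, at 1.58, 0.976 and 1.58 RPKM and at 0.976, 0.732 and 0.804 RPKM at 6 h, and at 2.96, 2.67 and 1.68 RPKM after 24 h at 2.5 μM. Its log2 fold change was −1.82 (SE 0.157, adjusted p = 0.000185, limma), −2.30 (SE 0.126, adjusted p = 2.46e-05) and −1.19 (SE 0.171, adjusted p = 0.0115). CD83, a surface marker of activated B and dendritic cells, fell from a mean of 118.7 RPKM to 74.0 and 58.6 RPKM at 6 h (adjusted p = 0.000263 and 2.33e-05) and was at −0.89 on the log2 scale (adjusted p = 0.000264) after 24 h at 2.5 μM. BCL2A1, an antiapoptotic BCL2 relative, fell at 6 h with log2 fold changes of −0.85 (adjusted p = 0.00048) and −1.21 (adjusted p = 8.29e-05), and TNFAIP3, the A20 inhibitor of NF-kB, with −0.91 (adjusted p = 0.000555) and −1.04 (adjusted p = 0.000329). The genes that rose are named after their values were seen. NFKBIA, which encodes the inhibitor IκBα, rose by 0.35 and 0.37 (adjusted p = 0.00767 and 0.0034). RELB, an NF-kB subunit, rose by 0.52 and 0.47 (adjusted p = 0.00108 and 0.000736), and ICAM1, an adhesion ligand of LFA-1, rose by 0.26 at 2.5 μM (adjusted p = 0.00748). With each library rescaled to the same sum, 2 rose and 7 fell at 500 nM, 3 rose and 9 fell at 2.5 μM, and 3 rose and 7 fell after 24 h at 2.5 μM. Under that scaling 2834 of 13615, 4675 of 13607 and 5362 of 13619 genes tested were past the threshold in these comparisons. Of those, 79.8%, 85.2% and 97.4% were higher.

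Interferon response genes that changed fell in these fits. Of 20 listed, 17 were tested, and 0 rose and 9 fell after 6 h at 500 nM, 0 rose and 6 fell after 6 h at 2.5 μM, and 0 rose and 2 fell after 24 h at 2.5 μM. The median log2 fold change of the list was −0.50, −0.37 and −0.33. In these comparisons 13.8%, 17.3% and 3.30% of all genes tested rose and 9.73%, 10.7% and 1.31% fell. OAS2, a sensor of double-stranded RNA, fell, with log2 fold changes of −0.81 (adjusted p = 0.000353, limma) and −0.64 (adjusted p = 0.00135) at 6 h. MX1, an antiviral GTPase, fell by 0.84 (adjusted p = 0.00152) at 500 nM and had a log2 fold change of −0.47 (adjusted p = 0.0674) at 2.5 μM. IFI6, a mitochondrial interferon-induced protein, fell by 0.87 (adjusted p = 0.0154) at 500 nM and was at −0.16 at 2.5 μM, and IRF9, part of the interferon-activated ISGF3 complex, fell by 0.44 at both doses (adjusted p = 0.0119 and 0.0155). With each library rescaled to the same sum, 2 genes of this list rose and 5 fell after 6 h at 2.5 μM. Under that scaling 4675 of all 13607 genes tested were past the threshold there, 85.2% of them higher.

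After 24 h at 500 nM, 0 genes of these 6 lists were past the threshold by limma. An unadjusted limma p under 0.05 was seen for 8 of them, 5 among the 18 tested of the NF-kB list. The lists had 1, 4, 19, 12, 18 and 17 genes tested there, in the order given. Over all genes, 763 of 13674 had such a p, and nothing is read from these unadjusted counts. After 24 h at 2.5 μM the count of listed genes past the threshold was 23, but it was 3 in a limma fit without the trend on expression and 7 without the filter on low values, so the calls at this time are less firm than those at 6 h. Left out 1 at a time, the libraries gave 5 to 26 calls there, with 10, 5 and 8 without replicates 1, 2 and 3 of the treated group and 14 without untreated replicate 2. The calls of ITGB2 (limma adjusted p = 0.0523 to 0.0608) and RAC2 (0.0647 to 0.0825) at that time were lost without any 1 of the 3 treated libraries. So were those of CCR10 (0.0719 to 0.122), which also lost its call without untreated replicate 2, and of CD69 (0.0985 to 0.163), which lost it also without untreated replicate 1 or 2. RGS1 lost its call there without treated replicate 1 or 2 (0.055 to 0.0583). At 6 h, ACKR4 at 500 nM lost its call without treated replicate 2 or 3 or any 1 untreated library (0.0664 to 0.136), and CCR10 at 2.5 μM without treated replicate 2 or 3 (0.058 to 0.0639). IRF9 lost its call at 500 nM without treated replicate 2 (0.0523) and at 2.5 μM without treated replicate 1 or 3 (0.0573 and 0.0625), and IFI6 at 500 nM without treated replicate 1 (0.0534).

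**Figure D3:**
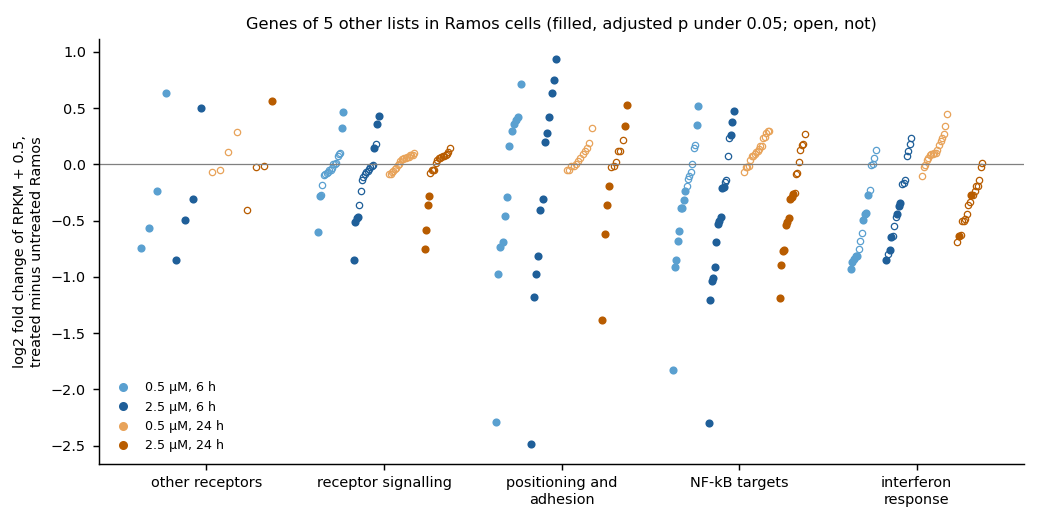
Log2 fold change from untreated Ramos cells of each tested gene of 5 lists in the 4 Omomyc groups, with genes at an adjusted p under 0.05 drawn filled. Most filled points of the NF-kB and interferon lists lie below 0 at 6 h, the adhesion list is split above and below 0, and no point is filled after 24 h at 500 nM.

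In HCT116 cells the chemokine ligands that were expressed were others. They are named after their values were seen. CXCL1, CXCL2, CXCL3 and CXCL8, neutrophil-attracting chemokines, and CXCL16, the CXCR6 ligand, were the 5 of 39 that could be tested there. All 5 rose at 6 h at both doses, where 2251 of all 14550 genes tested rose at 2 μM and 1307 of 14785 at 10 μM. CXCL8 had the largest rise of these 5, from 1.12, 0.671 and 1.28 RPKM in untreated cells to 28.5, 32.6 and 20.7 after 6 h at 2 μM and 9.28, 12.2 and 19.0 after 6 h at 10 μM (log2 fold change 4.19 and 3.16, SE 0.190 and 0.268, adjusted p = 1.89e-06 and 0.000548, limma). At 24 h CXCL8 was 1.78, 2.02 and 2.48 RPKM at 2 μM (adjusted p = 0.0137) and 1.17, 1.03 and 0.688 RPKM at 10 μM, which overlapped untreated cells. In Ramos cells CXCL8 did not exceed 0.0462 RPKM. The lines also differed in dose and in the delivery reagent described, so a difference between the lines cannot be told apart from these.

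**Figure D4:**
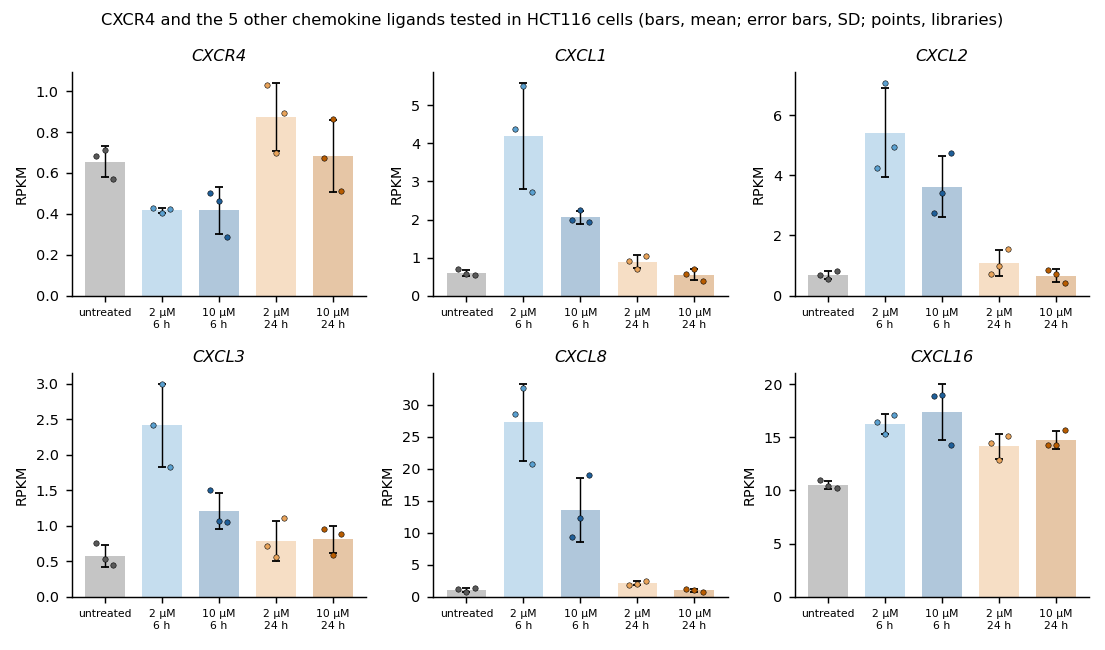
RPKM of CXCR4 and of the 5 other chemokine ligands expressed in HCT116 cells, by group, with points for the 3 libraries, bars for the mean and error bars for the SD. CXCR4 stays at or below 1.03 RPKM in every library, and CXCL8 reaches 20.7 to 32.6 RPKM after 6 h at 2 μM.

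The genes whose levels followed each member most closely over the 15 Ramos libraries were found by Pearson's r of log2(RPKM + 0.5), among genes with a mean of at least 2 RPKM. The 15 points are 5 groups of 3 libraries that share an untreated group, so r mostly follows the group means and is a description. CCL3 was closest to WARS, a tryptophan tRNA synthetase (r = 0.995), PHACTR1, an actin regulator (0.994), and EGR2, a transcription factor induced by B cell activation (0.992). CCL4 was closest to PHACTR1 (0.992), CCL3 (0.991) and PLEK (0.991). CCL1 was closest to IL4I1, a secreted amino acid oxidase (0.979), PHLDA1 (0.978) and BIRC3, an apoptosis inhibitor and NF-kB target (0.977). CCL22 was closest to SYNGR2 (0.986), TMSB4X (0.981) and CLEC17A (0.980), and CCR7 to CFLAR, an inhibitor of caspase 8 (0.977), ANXA6 (0.976) and CYTH1 (0.975).

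CXCR4 and CXCR5 had other neighbors. CXCR4 was close to ANKRD36BP2 (0.949) and ASB13 (0.944), and CXCR5 to NIN (0.952), TMX4 (0.882) and EVI2A (0.876). Among the members, r was 0.974 between CCL1 and CCL3, 0.991 between CCL3 and CCL4 and 0.980 between CCL22 and CCR7. CXCR4 had r of −0.872 to −0.800 with these 5 genes, and CXCR5 had r of 0.458 to 0.562.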

How the data were processed

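The authors deposited RPKM values of 57992 Ensembl gene identifiers in 1 table that has a column for each of 30 libraries. Per the labels, libraries were made from rRNA-depleted total RNA with a stranded kit. The submitters' processing notes name RSEM. The aligner, genome build and annotation are not given in the sources used here. The values are fractional, so the depth is unknown and no count test was used. All columns were mapped to samples, and groups came from the labels. Libraries whose titles give 24 h carry a time tag of 4 h, and the titles were followed. Symbols and positions came from GENCODE 29 (GRCh38), which matched 57388 identifiers. CCL3L1 and CCL3L3 were 1 identifier.

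Log2(RPKM + 0.5) was fitted with limma 3.58.1 in R 4.3.3 (lmFit, eBayes with trend) for each pair of groups, on genes that averaged 0.5 RPKM or more in the 6 libraries. P-values were two-sided and Benjamini-Hochberg adjusted over all genes tested, with a threshold of 0.05. Figures were drawn in Python 3.11.15 with pandas 2.3.3 and matplotlib 3.10.9. Pearson's r between replicates in Ramos cells was 0.984 to 0.994, and 0 pairs were identical. The members and lists were chosen with earlier results of these data known. The genes named are the 8 members, the copies of CCL3 and CCL4, up to 4 genes of each other list with the largest change among those past the threshold with a mean of at least 2 RPKM, and the 3 closest genes of each member (1 of those of CXCR4 is not reported here), and those outside this rule are said to be chosen after their values were seen. Alternatives were other pseudocounts, filters and scalings, eBayes without trend, a replicate block, all 5 groups in 1 fit, and leaving out each library. On data simulated for 2.5 μM at 6 h, 170 of 200 changed genes (85%, log2 change of 1) were recovered among 13447, with 13 false calls.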

Additional observations from a re-analysis of the deposited data

Results flagged for a closer look

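The log2 fold change of CCR7 from untreated Ramos cells was −1.41 after 6 h at 500 nM and 0.63 after 24 h at the same dose, and all libraries of these groups moved in opposite directions. At 24 h, CCR7 was at 0.63 at 500 nM and at −0.56 at 2.5 μM, again with every library of one group above the untreated ones and every library of the other below them. CXCR4 was at 0.42 in Ramos cells after 6 h at 2.5 μM and at −0.33 in HCT116 cells after 6 h at 2 μM, where its level was under 1 RPKM. The direct log2 difference of CCR7 was 2.03 between the times (24 h minus 6 h at 500 nM) and −1.19 between the doses (2.5 μM minus 500 nM at 24 h), and both are descriptions, since CCR7 was chosen with these values in view. The difference of CXCR4 between the lines was not tested. Whether a single library stands apart from the 3 of its group was not tested.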

How the results depend on the processing

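The members were chosen with their values in view, so how often their calls held describes the settings and supports nothing. No called member changed sign under any alternative run. The call held in 6 of 16 alternatives for CXCR4 after 6 h at 500 nM, in 11 of 16 for CXCR5 after 6 h at 2.5 μM and in 7 of 15 for CCL22 after 24 h at 2.5 μM. Leaving out 1 library at a time gave 5 to 6 members past the threshold after 6 h at 500 nM, 6 to 7 after 6 h at 2.5 μM, 0 after 24 h at 500 nM, and 3 to 4 after 24 h at 2.5 μM. For the other listed genes it gave 32 to 40 (from 40), 34 to 47 (from 44), 0, and 5 to 26 (from 23). At 24 h and 2.5 μM the 23 listed genes became 7 without the filter on low values, where more genes were tested, 3 with eBayes without trend and 14 with the replicate block, and the cause of the latter changes was not tested. No sign of pairing by replicate number was seen, as same-numbered deviations correlated at −0.146 to 0.0508. In the 4 comparisons, 0, 0, 1 and 1 of 3 libraries were closest to their own number. With 3 libraries a group, these values cannot decide whether the replicates were paired. Over all genes, 3209 changed after 6 h at 500 nM (58.7% higher). This was 2008 without the filter, and 79.8% were higher once all libraries were given the same sum of RPKM (the equal sum). Of 3795 after 6 h at 2.5 μM (61.8% higher), the share was 85.2% with the equal sum, 51.5% with median-ratio scaling and 50.1% with quantile normalization. Leaving out 1 library gave 1853 to 3012 and 2446 to 3703. At 24 h and 500 nM, the 2 genes became 0 without the filter, 1 with a mean of at least 2 RPKM or all 5 groups in 1 fit, 4 with the equal sum, and 1 to 4 without 1 library. At 24 h and 2.5 μM, 627 genes (71.6% higher) became 84 (52.4%) without the filter, 346 (43.4%) with median-ratio scaling, 323 (44.3%) with quantile normalization, 5362 (97.4%) with the equal sum, 24 (25%) with eBayes without trend, 197 (55.8%) with the replicate block, 1242 (77.9%) with all 5 groups, and 60 to 929 without 1 library. Under the equal sum the median over all genes tested was 0.11, 0.16, 0.08 and 0.24 on the log2 scale in the 4 comparisons, and log2 differences of this size are relative to that shift. The fold changes of members with a low level depended on the pseudocount, from −5.52 to −2.83 for CCL1 after 6 h at 2.5 μM. For named genes in the other lists, 53 results were rerun under the alternatives. Counted as single runs, 79 lost the call and 766 did not, and no run changed direction. The alternatives of these list genes were added after seeing the data. The number of reads behind a value is unknown, so differences in levels near 0 could not be resolved.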
